A study of Mus musculus with 2 samples.

Results

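The loci of the costimulatory receptors Cd28 and Icos and of the checkpoint receptors Ctla4 and Pdcd1 were examined in a list of REV-ERBα binding peaks from mouse Th17 cells, a class of CD4 helper T cell named after the cytokine IL-17 that it secretes. Members were chosen by position alone: a peak counted when its midpoint lay in the mm9 window from 60.75 to 61.12 Mb of chromosome 1, set for Cd28, Ctla4 and Icos, or in the window from 95.9 to 95.98 Mb of the same chromosome, set for Pdcd1. Of 8884 listed peaks, 20 met this rule, 19 in the first window and 1 in the second, so neither window was without a peak. The cells were wild-type primary Th17 cells in culture, and no further treatment, strain or age is named in the labels used here. One group is chromatin immunoprecipitation sequencing (ChIP-seq) with an antibody against REV-ERBα (1 sample) and the other is input DNA of the same kind of cells (1 sample). The series asks where REV-ERBα binds in Th17 cells. With 1 ChIP sample no value below has a replicate check and no test between groups was possible. All intervals are 95% intervals for counting error only, and depth is 6390234 ChIP tags. The list holds no expression values, so the Th17 label was not checked against marker genes.

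REV-ERBα belongs to the nuclear receptors, works as a repressor within the circadian clock, and recognises the same DNA element as RORγt, the receptor that defines Th17 cells. CD28 delivers the classical second signal that a T cell needs beside its antigen receptor, and ICOS is a related costimulator that is induced after activation. CTLA-4 competes with CD28 for the same ligands and restrains the response, and PD-1, the product of Pdcd1, is an inhibitory receptor that dampens signalling in activated T cells.

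Cd28 (gene identifier 12487), Ctla4 (12477) and Icos (54167) follow each other on chromosome 1 with no other protein-coding gene between them in the RefSeq gene table of GRCm38.p6. That table places 3 long non-coding RNA genes and 3 pseudogenes between Cd28 and Ctla4, and 1 of each between Ctla4 and Icos. The protein-coding neighbours are Raph1 beside Cd28 and Pard3b beside Icos. Pdcd1 (18566) lies next to Neu4. The table is of another build than the peaks, so it was used for names and order only. Gene boundaries in mm9 were not used here, and therefore no peak below is assigned to 1 of the 3 genes, to an exon or to an intron.

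Sequence under the peaks was not used here. To show what the promoters of these receptor genes hold of the element, the 250 bases before the annotated start are given for the 2 of 4 genes found in the RefSeq promoter table (GRCm38.p6), Ctla4 on the plus strand and Pdcd1 on the minus strand, each 5′ to 3′ in the direction of the gene. Capitals mark the core half-site AGGTCA of the REV-ERB and ROR element or its reverse complement TGACCT, searched on both strands.
Ctla4: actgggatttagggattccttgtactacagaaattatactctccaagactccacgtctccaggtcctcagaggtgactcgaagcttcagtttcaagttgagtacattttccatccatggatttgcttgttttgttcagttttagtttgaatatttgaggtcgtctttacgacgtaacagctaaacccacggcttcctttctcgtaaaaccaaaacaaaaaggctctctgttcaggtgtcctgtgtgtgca
Pdcd1: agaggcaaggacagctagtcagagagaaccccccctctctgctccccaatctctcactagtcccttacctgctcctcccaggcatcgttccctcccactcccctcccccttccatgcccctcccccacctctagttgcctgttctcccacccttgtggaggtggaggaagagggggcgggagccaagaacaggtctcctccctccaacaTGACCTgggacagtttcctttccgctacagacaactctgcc
The Pdcd1 sequence holds the half-site once, as TGACCT, with its first base 41 bases before the start, and the Ctla4 sequence does not hold it in this window. Of the 32851 promoter sequences of this length in the table, 14.0% hold AGGTCA on either strand, so a match of these letters is common. Only the half-site was searched, and the bases beside it were not examined, so a match does not show a whole element. Where the listed peaks lie relative to these promoters was not determined.

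REV-ERBα peaks were crowded at Cd28, Ctla4 and Icos. The 19 peaks in 370 kb gave 51.4 peaks per Mb (Poisson interval 30.9 to 80.2), against 3.52 over chromosome 1 and 3.50 over all chromosomes, a ratio of 14.7 to the whole. They made up 0.214% of the list and held 392 of its tags, 0.243% of all tags in peaks. The Pdcd1 window of 80 kb held 1 peak, or 12.5 per Mb, with an interval of 0.316 to 69.6 that includes the value over all chromosomes. A single peak therefore does not set the Pdcd1 window apart by density. The windows were proposed with results of these data known, so the ratios describe the loci and are no test.

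**Figure D1:**
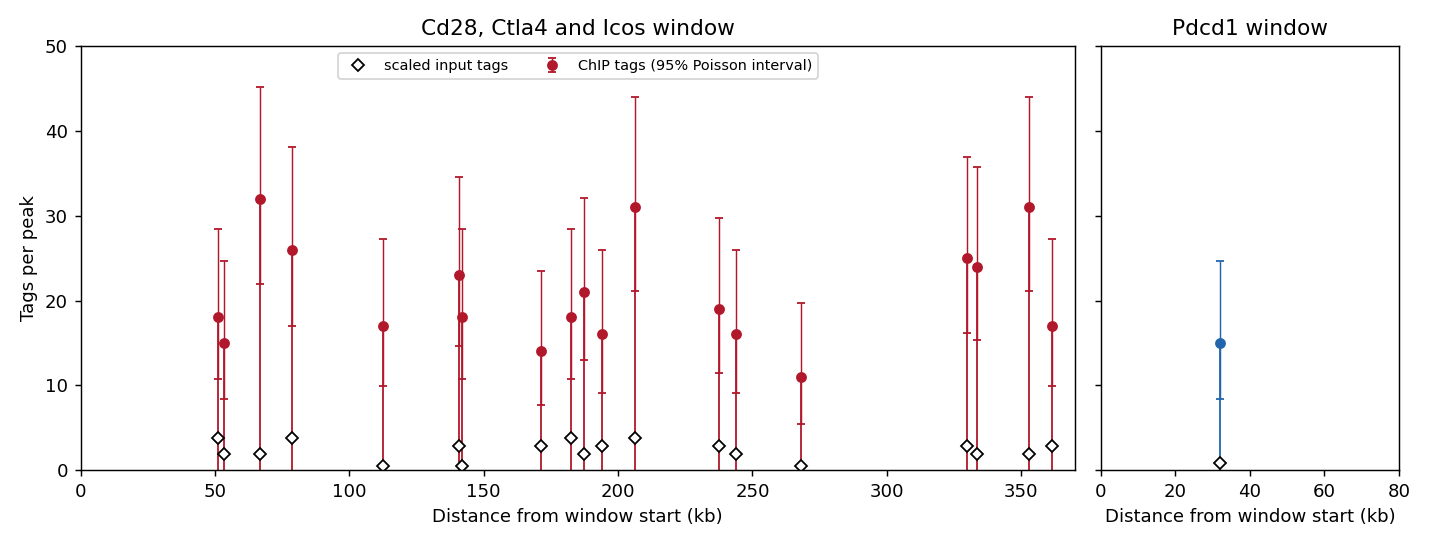
Tags per peak (vertical axis) against the distance of the peak midpoint from the start of its window in kb (horizontal axis), for the Cd28, Ctla4 and Icos window (left) and the Pdcd1 window (right). Filled points are ChIP tags with 95% Poisson intervals, vertical lines join them to 0, and open diamonds are scaled input tags. ChIP tags run from 11 to 32 in the left window and input stays at or below 3.8.

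The crowding was high for the list as a whole. When non-overlapping stretches of 370 kb were started at peaks, densest first, 4 of 1938 stretches held more than the 19 peaks found here and 1 other held as many. Those with more lay on chromosomes 4, 13, 15 and 19, with 20 or 21 peaks. In a division of the chromosomes into fixed blocks of 370 kb, 62.2% of 7122 blocks had no peak, the mean was 1.25 and the highest count 21. The block with most of the receptor locus, 60680001 to 61050000, held 15 peaks, and 14 blocks (0.197%) held at least that many. With stretches of 1 Mb the locus held 21 peaks and 45 stretches held more, so its rank depends on the width compared.

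Each of the 19 peaks had between 12 and 19 listed peaks within 185 kb of it, itself included, with a median of 15. Over the whole list the median was 5, with quartiles of 3 and 8. The Pdcd1 peak had no other listed peak within 185 kb. Its nearest neighbours were 355 kb before it, a peak at 95576804 with 14 tags, and 1620 kb after it, a peak at 97552432 with 13 tags.

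**Figure D2:**
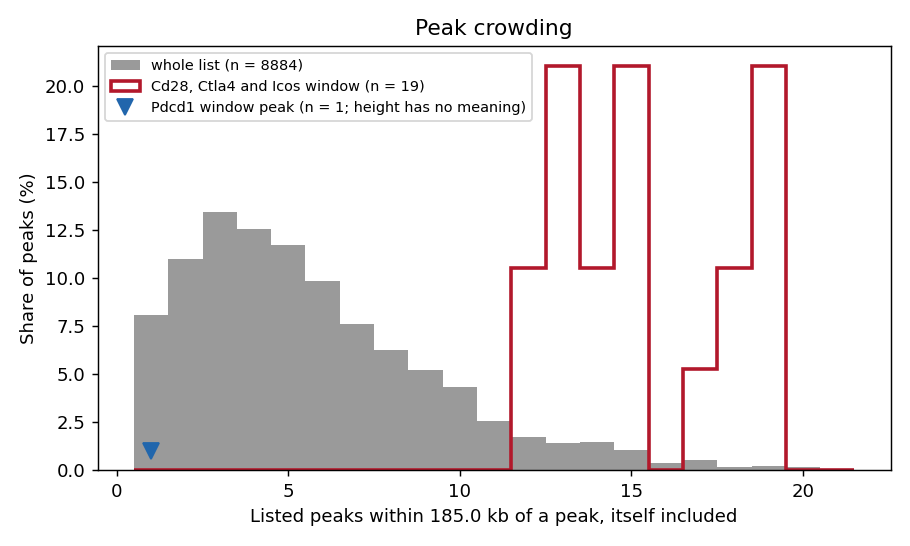
Share of peaks in % (vertical axis) by the number of listed peaks within 185 kb, the peak itself included (horizontal axis), for the whole list (grey bars, n = 8884) and the Cd28, Ctla4 and Icos window (red outline, n = 19). The 19 window peaks lie at 12 to 19, where the list has its upper tail, and the Pdcd1 peak (blue marker) lies at 1.

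The dense locus had clear limits on the side of its start. The nearest listed peak before it, at 60230060 to 60230366, lay 571 kb from the first member and had 18 tags, 0.9 scaled input tags and a score of 15. After the last member the next peak, at 61211425 to 61211731, lay 100 kb away with 17 tags, 0.9 scaled input tags and a score of 16. Extending the window by 50 kb on each side added no peak. First and last midpoints were 310 kb apart.

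Within the window the peaks were spread along its length. The 18 distances between successive midpoints had a median of 12.1 kb, against 50.8 kb over the list, and ran from 1.28 to 61.9 kb. Chained at 10 kb or less, the 19 peaks fell into 12 groups: 1 group of 3 peaks, 5 pairs and 6 single peaks. A neighbour within 10 kb was found for 13 of the 20 peaks, where 33.7% of all listed peaks had one. Short distances, near neighbours and high counts within 185 kb go with many peaks in a short window. They restate its density and are no separate results. Because the caller did not allow peaks closer than 612 bp, the shortest distance of 1279 bp is not at that limit.

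The values of the single peaks follow in the order of position. Each has the deposited total tags, the input tags that the authors brought to ChIP depth and the caller's score, which is a peak height on a scale with a threshold of 9.

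The first stretch held 4 peaks and included the peak with the most tags. The peak at 60801149 to 60801455 had 18 tags, 3.8 scaled input tags and a score of 14. Only 1.86 kb further, the peak at 60803014 to 60803320 had 15 tags, 1.9 scaled input tags and a score of 13. These 2 peaks form the first pair and are near the middle of the list in strength, since the median listed peak has 15 tags. After 13.6 kb the peak at 60816592 to 60816898 had 32 tags (interval 21.9 to 45.2), 1.9 scaled input tags and a score of 27. It was the strongest member by tags, above 95.1% of the list, and the authors' deposited p over input was 4.32e-28. The peak at 60828607 to 60828913, 12.0 kb on, had 26 tags, 3.8 scaled input tags and a score of 20.

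The next stretch had wider gaps. The peak at 60862291 to 60862597 was 33.7 kb from the one before and had 17 tags with a score of 13 and input at the lowest listed value, 0.5. After 28.2 kb came the tightest pair of the locus, with midpoints 1279 bp apart. Its first peak, at 60890533 to 60890839, had 23 tags, 2.8 scaled input tags and a score of 21. Its second, at 60891812 to 60892118, had 18 tags, a score of 14 and input again at 0.5. The pair together held 41 tags. The following peak, at 60921131 to 60921437, was 29.3 kb away and had 14 tags, 2.8 scaled input tags and a score of 12.

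The middle of the window held the only group of 3 peaks within 10 kb steps, spanning 11.7 kb and holding 55 tags. The peak at 60932285 to 60932591 had 18 tags, 3.8 scaled input tags and a score of 17. At 60937045 to 60937351 the values were 21 tags, 1.9 scaled input tags and a score of 17. The peak at 60943946 to 60944252 had 16 tags, 2.8 scaled input tags and a score of 16. No member of this group was among the strongest of the locus. A strong single peak followed 12.2 kb later, at 60956161 to 60956467, with 31 tags (interval 21.1 to 44.0), 3.8 scaled input tags and the highest score of the members, 29. This peak and the group of 3 each had 19 listed peaks within 185 kb, the highest number among the members.

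The next peaks had fewer tags than the strong single peak at 60956161. A pair 6.38 kb apart had 19 tags, 2.8 scaled input tags and a score of 15 at 60987326 to 60987632, and 16 tags, 1.9 scaled input tags and a score of 15 at 60993708 to 60994014. The weakest member, at 61017956 to 61018262, had 11 tags (interval 5.49 to 19.7), a score of 11 and input at 0.5. It had more tags than 10.6% of the list. After it came the longest stretch of the locus with no listed peak, 61.9 kb between midpoints.

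The last stretch held 2 pairs, and 3 of its 4 peaks had over 20 tags. The pair at 61079816 to 61080122 and 61083584 to 61083890, 3.77 kb apart, had 25 and 24 tags, 2.8 and 1.9 scaled input tags, and scores of 21 and 22. The final pair was 8.58 kb apart. Its first peak, at 61102743 to 61103049, had 31 tags (interval 21.1 to 44.0), 1.9 scaled input tags and a score of 28. Its second, at 61111320 to 61111626, had 17 tags, 2.8 scaled input tags and a score of 14.

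At Pdcd1 the peak at 95931834 to 95932140 had 15 tags (interval 8.40 to 24.7), 0.9 scaled input tags and a score of 13. Its tag count equals the list median. It lay 32.0 kb from the start of its window.

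Across the members, tags ran from 11 to 32 with a median of 18, against 15 in the list, and scores from 11 to 29 with a median of 15.5, against 13. At least the list median of 15 tags was reached by 18 of 20 peaks, where 51.3% of the list reach it. The exceptions are the peaks of 14 and 11 tags named above. A listed peak had to exceed its local region 4-fold, so more tags are needed where the surrounding tag density is higher. That density had a median of 3.25 tags per peak width in the dense window and 1.93 in the list. The part of this filter in the tag comparison was not tested. Of the 19 peaks in the dense window, 3 had at least 30 tags (6.73% of the list) and 11 had under 20 (73.6% of the list). The interval of the strongest peak overlapped those of 17 of the other 18, all but the weakest. Overlap of separate intervals does not decide whether counts differ, and the other peaks were not compared with each other. How much of the order by tags within the locus is resolved at this depth was therefore not tested.

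Enrichment over input did not set the members apart. At least 8-fold was listed for 12 of 20 peaks, beside 61.5% of the list, and the median deposited fold was 8.33 against 10.6. Pooled over the 19 peaks of the dense window, 392 ChIP tags stood over 44.9 scaled input tags. Scaled input had a median of 2.8 in that window and 1.9 in the list. In whole input tags, each worth 0.945 on the scaled axis, 4 members had 4, 6 had 3, 6 had 2, 1 had 1 and 3 had none; in the list, 6.10% of peaks had 4, 16.8% had 3, 27.6% had 2, 29.0% had 1 and 16.8% had none. Peaks with 4 or 3 input tags thus made up a larger share of the members than of the list, and peaks with 1 a smaller share. Only the shares with 2 or no input tags lay near those of the list. Whether this shift towards more input exceeds counting error was not tested.

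**Figure D3:**
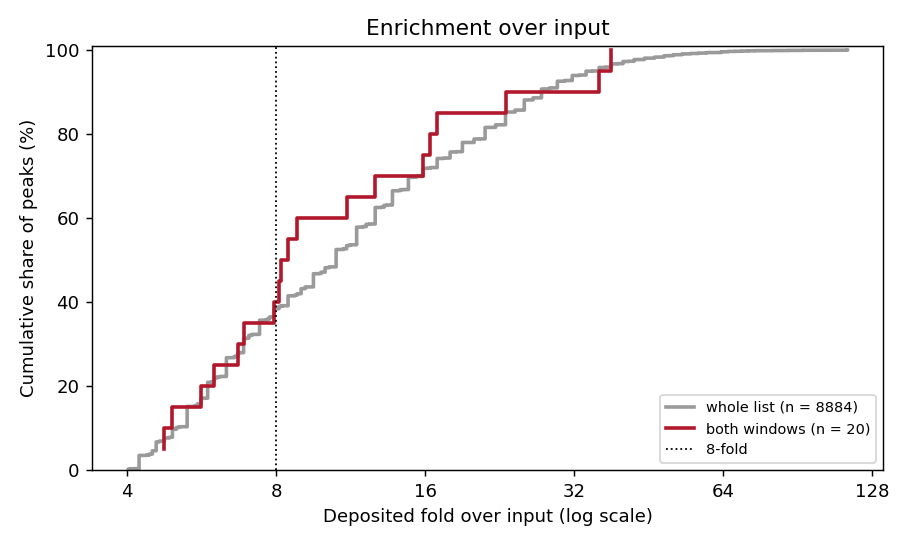
Cumulative share of peaks in % (vertical axis) against the deposited fold over input (horizontal axis, log scale) for the whole list (grey, n = 8884) and the peaks of both windows (red, n = 20). The dotted line marks 8-fold, which 12 of 20 members and 61.5% of the list reach, and the folds above about 20 in the members come from peaks with input at the lowest value.

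Single folds rest on few input tags. The strongest peak, at 60816592, was listed at 16.93-fold with an exact binomial interval of 4.32 to 146, and the peak at 61102743 at 16.40-fold (4.17 to 141). Lowest were the peaks at 60801149 and 60932285, both 4.76-fold (1.57 to 19.3), close to the required 4-fold. The 3 peaks with no input tag, at 60862291, 60891812 and 61017956, are 5.99-fold, 6.35-fold and 3.88-fold over a floor of 3 input tags per peak. This floor takes the ChIP count as exact, so these values are not lower limits of the kind given for the other peaks. The listed folds of these 3 peaks depend on the lowest value and are not measured ratios. The Pdcd1 peak was listed at 15.87-fold on 1 input tag, with an interval of 2.44 to 668. These intervals overlap for all pairs with a measured ratio.

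The members of the dense window stood out less from their surroundings than most listed peaks. The deposited fold over the local region of 10 kb had a median of 5.54 in the window and 7.78 in the list. At least 8-fold over the local region was listed for 3 of 20 peaks, beside 47.5% of the list: those at 60987326 (9.26-fold) and 61017956 (8.94-fold) and the Pdcd1 peak (8.97-fold). The peaks at 60932285 and 60803014, with 4.07-fold and 4.10-fold, were just inside the required 4-fold. Dividing tags by this fold gives the local tag density per peak width, which had a median of 3.25 tags in the window and 1.93 in the list; a uniform spread of the library would give 0.831. It was above the list median in 18 of 20 members, beside 49.9% of the list. Among the 7565 listed peaks with 11 to 32 tags, the range of the members, the median was 1.99.

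The highest local densities belonged to the peaks at 60816592 and 60828607, with 6.53 and 6.03 tags per peak width, above 99.5% and 99.3% of the list. Neither has a listed neighbour within 10 kb, so no listed peak enters their local region. The 6 members of the window with no neighbour within 10 kb had a median of 3.58, against 1.70 for the 5889 such peaks of the list. Their tags differed too, with a median of 21.5 in these members and 14.0 in those listed peaks. Putative peaks that failed the local filter are not listed. More tags in a peak allow a higher local density, since the filter caps it at the tags divided by 4, and the part of this in the difference was not tested. At the Pdcd1 peak the local density was 1.67, under the list median.

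**Figure D4:**
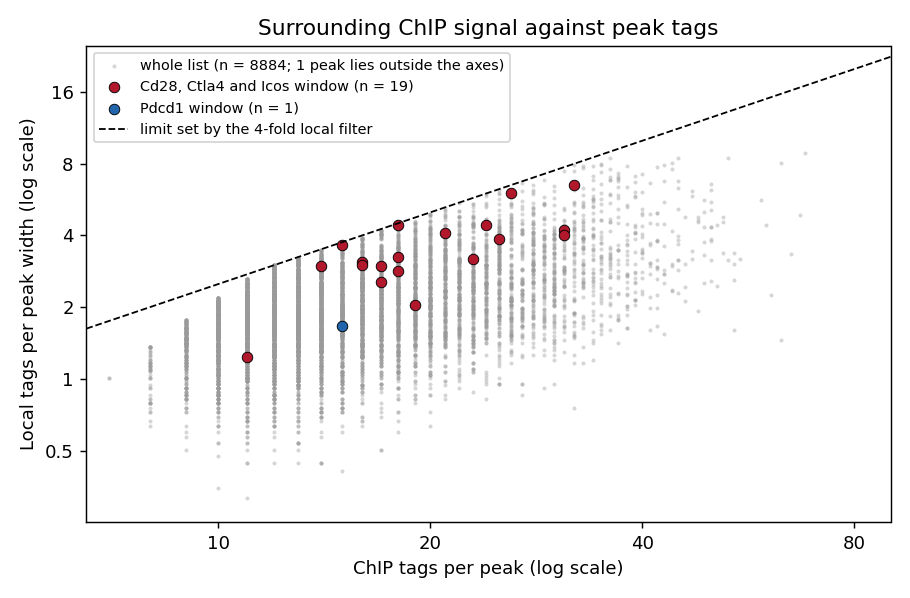
Local ChIP tags per peak width (vertical axis, log scale) against ChIP tags per peak (horizontal axis, log scale) for the whole list (grey), the Cd28, Ctla4 and Icos window (red, n = 19) and the Pdcd1 peak (blue). The dashed line is the limit set by the 4-fold local filter; 18 of the 19 red points lie above the list median of 1.93, and 1 listed peak with far more tags lies outside the axes.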

How the data were processed

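Values came from 1 deposited peak list, made from 1 ChIP library against 1 input library; the input sample was not analysed here beyond the values this list gives. CASAVA 1.8.2, Bowtie, HOMER and mm9 are listed per the submitters' processing notes, while for Bowtie and HOMER the version is not given in the sources used here. Per the file headers, peaks were called with findPeaks at a false discovery rate of 0.001 (9 tags), then had to exceed both input and the surrounding 10000 bp by 4-fold with a Poisson p of 1e-04; peak width and fragment length were 306 bp. Of 14274 putative peaks, 3533 failed the input filter and 1857 the local filter, per the file headers. Total tags are counts deposited without normalization. The normalized tag count (scaled to 10000000) and the input tags (scaled to ChIP depth) are signals made by the authors. Deposited folds are linear ratios, deposited p-values are the caller's, and the deposited score is its peak height.

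Python 3.11.15 with numpy 2.4.6, pandas 2.3.3, scipy 1.17.1 and matplotlib 3.10.9 was used. Window assignment and spacing were tested on simulated peaks. For density, the simulated peaks checked only that the densest stretch held at least the planted number, not the rank of the locus. Whole input tags were recovered by dividing tags by the listed fold. Densities on chromosomes use the distance from first to last peak. Every peak in the windows is named, and outside them the nearest listed peak on each side. Windows, members and comparisons were chosen with earlier results of these data known. Alternatives were stricter fold and tag cuts, other window bounds, other neighbour distances and leaving out peaks with no input tag; stretch widths and settings for the local density were added after seeing the data.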

Additional observations from a re-analysis of the deposited data

How the results depend on the processing

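Under the alternatives that changed peaks or window bounds, the number of peaks at Cd28, Ctla4 and Icos ran from 11 to 19; it was 11 with only peaks at least 8-fold over input, since that cut removes peaks of the whole list too, and the density relative to all chromosomes was then 13.8 against 14.7. With only peaks at or above the median tags, that ratio was 25.6. This cut kept 17 of the 19 peaks and 51.3% of the list, so the rise restates the tag comparison above and shares its limit. The Pdcd1 window kept its 1 peak under all 5 of its alternatives. Peaks with a neighbour within 10 kb, 13 of 20, fell to 4 when the 8-fold cut left 12 peaks, and to 8 at a distance of 5 kb. Neither setting can raise the count, but the size of the fall is not fixed by it. The shares of the whole list under these settings are not given here, so these counts have no comparison. Stretches at least as dense as the locus, itself included, numbered 6 at 370 kb, 61 at 1 Mb, 19 with only peaks at least 8-fold over input and 2 with only peaks at or above the median tags; the cause was not tested. No paired analysis was possible because there is 1 ChIP sample, and for the same reason no replicate could be left out. A site whose score is under the threshold of 9 is not listed, so stretches with no listed peak are not shown to be unbound.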

Other observations

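In bins of 10 kb from the start of the Cd28, Ctla4 and Icos window, 16 of 37 bins held a peak midpoint and none held more than 2. The deposited clonal fold change, a measure of repeated tag positions, ran from 0.81 to 1.14 over the 20 peaks with a median of 0.98, which is also the list median.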
